A study of Mus musculus with 48 samples.

Results

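Genes annotated inside the introns of protein-coding genes were examined in amygdala punches of female mice. The members were the genes of the deposited table that GENCODE M21 classes as TEC or sense_intronic, that lie wholly within a coding gene of the same strand and that share no exonic base with it. Of the 52636 genes deposited, 1684 met this rule, 1392 of class TEC and 292 of class sense_intronic, inside 997 host genes. They were set against 1112 TEC genes that overlap no protein-coding gene on either strand, against 338 TEC genes that lie inside a protein-coding gene of the opposite strand, and against the 997 hosts. The class TEC is used for unspliced clusters of expressed sequence tags with features of polyadenylation that still lack laboratory evidence. The class sense_intronic is used for long noncoding transcripts that start and end within an intron of a coding gene.

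The labels give C57BL/6NTac-Brd1 as the strain of every sample, and the mice were either wildtype (WT) or heterozygous for a targeted deletion in Brd1, whose product takes part in histone acetylation. Each genotype received saline as vehicle, 10 mg/kg of the tricyclic imipramine (IMN) or 5 mg/kg of the serotonin reuptake inhibitor fluoxetine (FLX), and each of the 6 groups held 8 mice. Per the methods, all groups were 8 to 11 weeks old, were injected subcutaneously on both test days, went through tail suspension, open field and forced swim tests, and had the right amygdala punched from frozen sections. The punches are bulk tissue, so fewer cells of a type and less RNA per cell cannot be told apart. The sample codes of vehicle mice and of drug mice fell in separate ranges, so any handling that followed the codes cannot be told apart from the drugs.

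Introns are cut from the primary transcript in the nucleus and most are degraded soon after, while exons are joined into the mRNA. Long neuronal genes have introns that far outspan their exons, and RNA polymerase transcribes an intron near the start of a gene before one near its end. A read inside an intron can come from a separate transcript, from unspliced host RNA or from an excised intron, and levels summed per gene, with the strand used in counting not stated, do not separate these sources. Levels are given as TPM, in which the reads of a gene are scaled by its length and by the library total. TPM keeps no read totals, so the depth is unknown and no interval of counting error could be given.

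The members were short next to the introns that hold them. Their median exonic length was 2034 bases, 1527 of 1684 (90.7%) had a single exon, and 1680 lay within 1 intron, whose median length was 31246 bases. Most hosts (716 of 997) held 1 member, 45 held at least 5, and 23 members had a second possible host. The members' levels were low: the median over members of the mean TPM in all 48 libraries was 0.0684, 978 had a mean under 0.1 TPM, 209 reached 1 TPM and 9 reached 10 TPM. The median of the host means was 30.1 TPM, and 17 members had a higher mean TPM than their host. In all 48 libraries 289 members were above 0, and 62 were listed at 0 in every library.

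The sequences of leading members are shown first, since the class TEC is defined by features of polyadenylation. They were read from the GENCODE M21 transcripts (GRCm38), 5′ to 3′ on the strand of the gene, as 60 bases around the longest run of A, which is in capitals. The first 4 belong to members with the largest differences between the vehicle groups and the last 3 to members among the 10 with the highest mean level. In Gm37247 (in Bsn, encoding the presynaptic scaffold Bassoon) the window lay at chr9:108189212-108189271, minus strand, in Gm42908 (in Mlxip) at chr5:123401743-123401802, plus strand, in Gm45191 (in Prkcb) at chr7:122315191-122315250, plus strand, and in Gm45182 (in Dlg2) at chr7:91160793-91160852, plus strand. In Gm47260 (in Ddx24) it lay at chr12:103415347-103415406, minus strand, in Peg13 (in Trappc9) at chr15:72809617-72809676, minus strand, and in Gm42732 (in Ociad1) at chr5:73312501-73312560, plus strand.
Gm37247: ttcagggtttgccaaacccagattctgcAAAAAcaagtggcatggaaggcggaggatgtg
Gm42908: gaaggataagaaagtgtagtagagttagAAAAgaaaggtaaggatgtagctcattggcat
Gm45191: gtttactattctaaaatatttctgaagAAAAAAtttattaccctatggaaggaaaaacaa
Gm45182: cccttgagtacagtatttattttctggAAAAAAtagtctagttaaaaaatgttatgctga
Gm47260: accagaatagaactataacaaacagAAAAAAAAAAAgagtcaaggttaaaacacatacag
Peg13: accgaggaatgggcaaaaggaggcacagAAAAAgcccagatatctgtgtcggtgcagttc
Gm42732: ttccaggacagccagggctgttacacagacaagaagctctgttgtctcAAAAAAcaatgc

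The longest run of A was 5 bases in Gm37247, 4 in Gm42908, 6 in Gm45191 and Gm45182, 11 in Gm47260, 5 in Peg13 and 6 in Gm42732. Over the members the median longest run was 7 bases, and it was also 7 in the 78 members called higher in Brd1+/- vehicle mice below. A run of at least 10 A was held by 11 of these 78 (14.1%), by 156 of the other 677 members tested there (23%), and by 161 of the 1112 TEC genes outside genes (14.5%). The polyadenylation hexamer AATAAA, searched on the transcribed strand in the last 60 bases, was present in 10 of the 78 (12.8%), in 19.6% of the 677, in 274 of all 1684 members (16.3%) and in 309 of the 1112 TEC genes outside genes (27.8%). The median GC content was 40.9% in the 78, 41.4% in the 677 and 42.9% in the TEC genes outside genes. These shares are descriptions of the annotated sequence, without a test.

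The vehicle groups were compared first, without any filter, to ask how many of the members were seen in each genotype. More members were above 0 in each Brd1+/- vehicle library than in any of the other 40 libraries. The lowest, median and highest numbers of members above 0 were 1052, 1196 and 1322 in Brd1+/- vehicle mice and 767, 824 and 902 in WT vehicle mice. The other 4 groups lay with WT vehicle, from 636 in a WT FLX library to 935 in a WT IMN library. The means were 1197 ± 85.9 and 829 ± 39.4 members (n = 8 each, SD) in Brd1+/- and WT vehicle mice. Over all genes of the table the numbers above 0 were 26271 ± 802 and 25082 ± 472 (n = 8 each, SD), a far smaller difference in proportion. TEC genes on the opposite strand inside genes also separated the vehicle groups, with 199 to 246 above 0 in Brd1+/- and 167 to 190 in WT libraries. TEC genes outside genes had 416 to 503 and 390 to 433 above 0, with overlap. The part of depth in these numbers was not tested.

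The summed level of the members differed less in proportion than their number. The 37 members over 5 TPM in the 40 libraries outside Brd1+/- vehicle mice held on average 498 TPM of the sum in Brd1+/- and 506 TPM in WT vehicle libraries. The lowest, median and highest sums were 1117, 1227 and 1478 TPM in Brd1+/- vehicle mice and 884, 1080 and 1127 TPM in WT mice with vehicle, so the groups overlapped only at their edges. The other 4 groups had means between 980 and 1018 TPM. Without Peg13, by far the most abundant member, the sums ran from 950 to 1331 TPM and from 762 to 979 TPM. As a share of the summed level of the hosts the members made up 2.83 ± 0.257% in Brd1+/- and 2.27 ± 0.157% in WT vehicle mice (n = 8 each, SD), where each Brd1+/- vehicle library (2.54% to 3.24%) lay above each of the other 40 (1.77% to 2.52%). The hosts themselves summed to 44353 ± 1719 TPM in Brd1+/- and 46298 ± 3675 TPM in WT mice with vehicle (n = 8 each, SD). The TEC genes outside genes summed to 731 ± 53.3 and 699 ± 35.1 TPM in the same mice (n = 8 each, SD), with overlapping libraries, 636 to 818 TPM against 642 to 750 TPM.

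**Figure D1:**
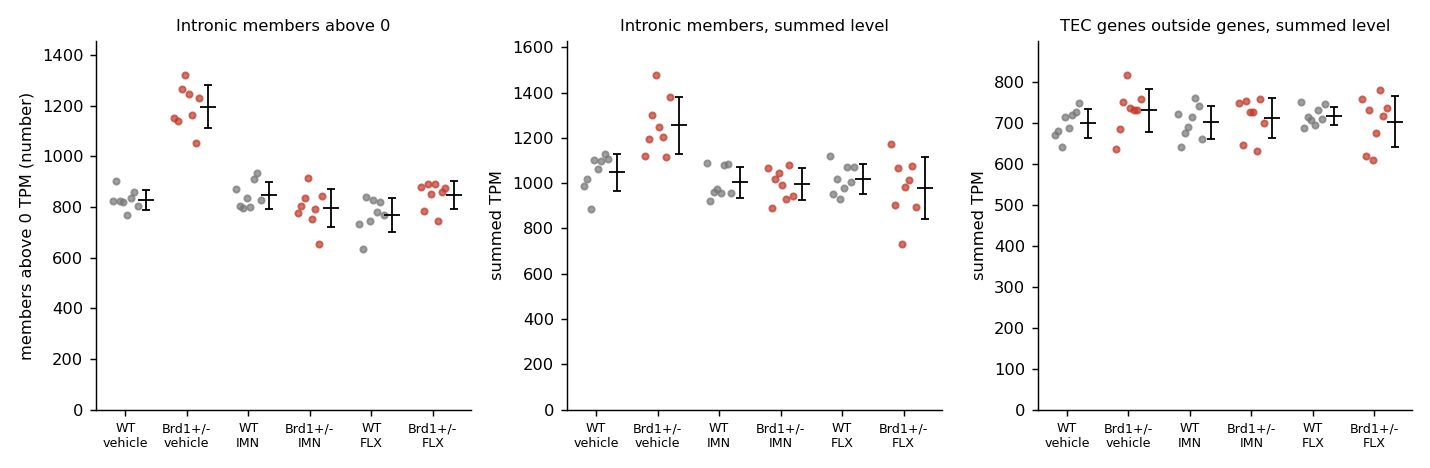
Number of intronic members above 0 TPM (left), their summed TPM (middle) and the summed TPM of TEC genes outside protein-coding genes (right), 1 point per library in the 6 groups of 8, with mean and SD as black bars beside the points. The 8 Brd1+/- vehicle libraries stand between 1052 and 1322 members above 0, all above the other 40 libraries, while the sums of the TEC genes outside genes overlap between groups.

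Other measures of the libraries were set beside this comparison, and of the lists below only the small structural RNAs had sums that separated the vehicle groups. Of the list of 11 small structural RNAs (7SL, 7SK, RNase and telomerase RNAs and the like), all found and none at 0 throughout, the summed level was 162 to 315 TPM in Brd1+/- vehicle mice and 5.81 to 37.0 TPM in the other 40 libraries, with 2 of the 4 tested members called higher in the comparison of vehicle mice. The list of 11 nuclear-retained noncoding RNAs such as Malat1 includes Peg13, which is itself a member. These 11 summed to 3232 to 5360 TPM in Brd1+/- vehicle and to 2122 to 4805 TPM in WT mice with vehicle, and 1 of 11 was called higher. The 13 mitochondrial mRNAs summed to 101964 to 151037 and 98931 to 165691 TPM, and 67 histone genes, of which Hist1h2aa and Hist2h2aa2 were listed at 0 throughout, to 240 ± 41.1 and 218 ± 93.5 TPM (n = 8 each, SD). Each of the lists of neuronal, amygdala, striatal, astrocyte, oligodendrocyte, microglia, endothelial and choroid plexus markers had overlapping sums in these groups. The 6 amygdala markers were above 0 somewhere, at 421 to 1674 TPM in Brd1+/- vehicle and 289 to 1552 TPM in WT mice with vehicle. The 6 markers of striatal projection neurons ranged from 141 to 6201 and from 101 to 7290 TPM, and the 6 oligodendrocyte markers from 2195 to 15522 and from 642 to 10381 TPM. The part of these measures in the results on the members was not tested. Brd1 itself was at 26.0 ± 2.90 TPM in Brd1+/- and 35.6 ± 5.09 TPM in WT mice with vehicle (n = 8 each, SD; log2 difference -0.45, limma adjusted p = 0.0512), at 23.4 ± 4.84 and 36.9 ± 2.83 TPM with IMN (adjusted p = 0.102) and at 23.5 ± 3.49 and 32.9 ± 4.45 TPM with FLX (adjusted p = 0.0362).

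Gene by gene, intronic members were higher in Brd1+/- than in WT vehicle mice, and none passed the test as lower. Values were compared with limma on log2(TPM + 0.1), a scale that understates the change of low genes, for genes of at least 0.1 TPM in at least 8 of the 16 libraries. Of the 1684 members 755 passed this filter, and 78 (10.3%) were called higher and 0 lower at an adjusted p of 0.05, against 0.688% of all 24279 genes tested that were called higher. At an unadjusted p under 0.05 stood 287 of the 755. The called were 62 of the tested TEC members (9.81%) and 16 of the sense_intronic ones (13%). Of the 755, 21 had at least 0.1 TPM in no WT vehicle library, so these entered only through the group in which they were higher. The 322 that had it in all 8 would have passed on WT vehicle libraries alone. The rest needed Brd1+/- vehicle libraries to make up the 8. In comparisons without Brd1+/- vehicle mice only 548 to 562 members passed.

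The filter was therefore also set on the 40 libraries outside Brd1+/- vehicle mice, an alternative chosen after the data were seen. Then 799 members were tested and 33 were called higher, against 0.361% of the 26899 genes tested, and the median log2 difference of the members was 0.43, with 80.9% of them above 0. With the same filter the median was 0.22 for 188 TEC genes on the opposite strand inside genes, of which 5 were called, 0.08 for 414 TEC genes outside genes, of which 2 were called, and 0.02 for 965 hosts. No host was called by limma in either fit, and 79 of 952 hosts had an unadjusted p under 0.05 in the first. Over all genes the median was 0.03. With no filter at all, each Brd1+/- vehicle library exceeded each WT vehicle library for 78 of 1684 members (4.63%), against 0.270% of all 52636 genes, 4 of 1112 TEC genes outside genes, 6 of 338 on the opposite strand and 1 of 997 hosts. For 24 members (1.43%) it also exceeded every other library of the 48, against 0.0874% of all genes.

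With 1 Brd1+/- vehicle library left out, the filter still asked for 8 libraries. The 21 members with at least 0.1 TPM in no WT vehicle library could then not be tested. The count of calls changed with single libraries of Brd1+/- vehicle mice. It was 46 without library 1, 41 without library 2, 34 without library 3, 31 without library 4, 36 without library 5, 39 without library 6 and 31 without library 8, with 674 to 686 members tested and none called lower.

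**Figure D2:**
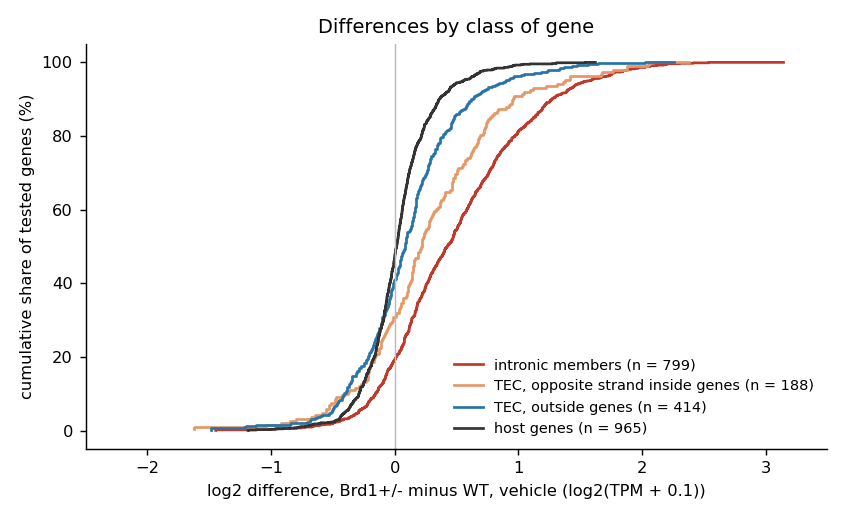
Cumulative share of tested genes (vertical axis, %) against the log2 difference between Brd1+/- and WT vehicle mice (horizontal axis), with the filter on the 40 libraries outside Brd1+/- vehicle mice. The curve of the 799 intronic members lies to the right of the others, with a median of 0.43, and that of the 965 hosts is centred near 0.02.

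The 4 TEC genes outside genes that were called in the first fit are named although they were chosen after their values were seen. Gm37899 stood at 1.15 ± 0.469 TPM in Brd1+/- and 0.0249 ± 0.0159 TPM in WT mice with vehicle, 5330406M23Rik at 1.13 ± 0.608 and 0.141 ± 0.0720 TPM, Gm37238 at 0.606 ± 0.213 and 0.164 ± 0.115 TPM, and Gm37728 at 0.367 ± 0.137 and 0.0209 ± 0.0388 TPM (n = 8 each, SD). All were higher, as were the 8 called genes on the opposite strand, whose log2 differences ran from 1.32 to 2.05. In WT vehicle libraries Gm37899 and Gm37728 had at most 0.0537 and 0.0897 TPM, and Gm47992 on the opposite strand at most 0.0841 TPM. These passed the filter only through the group in which they were high, so their differences are descriptions.

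The 78 called members lay in 63 hosts on 13 chromosomes, and 71 of them had a single exon. Their log2 differences ran from 1.07 to 3.14 with a median of 1.75, and 4 shared bases with an exon of another gene, so that reads could be divided between genes in more than one way. Their levels stayed low, with means from 0.213 to 1.59 TPM in Brd1+/- vehicle mice, of which 5 reached 1 TPM, and 3 were listed at 0 in all 8 WT vehicle libraries. None of their hosts was called, and the median log2 difference of these hosts was -0.01. In 48 of the 78 the vehicle groups did not overlap, a count among members chosen by this same difference. Without a filter or a choice by call, Brd1+/- stood wholly above WT vehicle mice for 4.63% of the members and 0.270% of all genes.

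Of the 5 called members that reached 1 TPM, Gm19409 differed most clearly. It is a single exon of 2858 bases (chromosome 5, 30815620 to 30818477, plus strand) in an intron of 38900 bases of Mapre3, which encodes a protein that binds growing microtubule ends, and it lies 722 bases after the nearest upstream exon. Its lowest, median and highest levels were 0.894, 1.59 and 2.18 TPM in Brd1+/- vehicle mice and 0.0416, 0.204 and 0.494 TPM in WT mice with vehicle. The highest of the other 40 libraries had 0.804 TPM, so all 8 Brd1+/- vehicle libraries stood above all others. The log2 difference was 2.41 ± 0.30 (SE, limma adjusted p = 0.000318). Mapre3 itself ranged from 94.1 to 144 TPM in Brd1+/- and from 89.6 to 168 TPM in WT mice (log2 -0.13, limma adjusted p = 0.883). Gm19409 shares bases with an exon of another gene, which is a limit on its value.

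Gm14376 is a sense_intronic gene of 2 exons and 297 exonic bases near the start of Cttn, the gene of the actin-binding protein cortactin (chromosome 7, 144469533 to 144469993, minus strand). Being the shortest of the leading members, it is shown whole, since on so short a gene a few reads make a large TPM.
Gm14376: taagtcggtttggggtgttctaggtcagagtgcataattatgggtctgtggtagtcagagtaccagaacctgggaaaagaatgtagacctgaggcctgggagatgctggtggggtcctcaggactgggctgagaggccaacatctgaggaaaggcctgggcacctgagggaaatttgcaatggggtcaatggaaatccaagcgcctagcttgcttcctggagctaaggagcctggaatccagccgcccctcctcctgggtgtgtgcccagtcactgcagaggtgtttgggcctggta
It was above 0 in 1 of 8 WT vehicle libraries, at 0.526 TPM, and in all 8 Brd1+/- vehicle libraries, with lowest, median and highest levels of 0.326, 1.16 and 1.84 TPM. The log2 difference was 3.14 ± 0.42 (SE, limma adjusted p = 0.000564). In this fit Gm14376 passed the filter through the Brd1+/- vehicle libraries, in which it was high, so its difference is a description. In the drug groups it had means of 0.630 to 0.834 TPM, with up to 2.69 TPM in a Brd1+/- FLX library, and WT vehicle had the lowest of its 6 group means.

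Gm43751 lies in a short intron (3945 bases) of Ank2, which encodes the membrane scaffold ankyrin-B, at chromosome 3, 127048976 to 127052046, minus strand. Its lowest, median and highest levels were 0.382, 1.07 and 1.65 TPM in Brd1+/- and 0.0205, 0.145 and 0.672 TPM in WT mice with vehicle, with 1 WT library inside the other range. The log2 difference was 2.07 ± 0.37 (SE, limma adjusted p = 0.00872). Ank2 had 276 ± 57.1 and 268 ± 80.4 TPM (n = 8 each, SD).

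Gm29438 lies at chromosome 6, 72104201 to 72106813, plus strand, in St3gal5, whose product makes the ganglioside GM3. It was at 0.398, 1.04 and 1.84 TPM against 0.231, 0.272 and 0.682 TPM (lowest, median, highest), overlapping ranges, and differed by 1.42 ± 0.29 on the log2 scale (SE, limma adjusted p = 0.0284). Median-ratio scaling and the filter on the other 40 libraries ended this call (adjusted p = 0.0509 and 0.0534). Gm38366, at chromosome 9, 108530832 to 108532765, plus strand, in Qrich1, had 1.17, 1.46 and 2.36 TPM against 0.427, 0.726 and 1.28 TPM, and differed by 1.07 ± 0.24 on the log2 scale (SE, limma adjusted p = 0.0428). That call ended under most of the alternatives, among them no filter (adjusted p = 0.0599) and all 48 libraries in 1 fit (adjusted p = 0.0583).

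The called members with the largest differences at any level were chosen after their values were seen, and most were nearly absent outside Brd1+/- vehicle mice. Gm42908 (chromosome 5, 123401072 to 123401941, plus strand) lies in an intron of 44693 bases of Mlxip, which encodes a glucose-responsive transcription factor. It had 0.427, 0.593 and 1.00 TPM (lowest, median, highest) in Brd1+/- vehicle mice and was listed at 0 in all 8 WT vehicle libraries, and in the 4 drug groups it was above 0 in 1 library only, at 0.192 TPM. It passed the filter only through the group in which it was high, so its difference is a description, and no fold is given against libraries listed at 0. Its neighbour Gm42907 in the same intron, which shares bases with an exon of another gene, had 0.546 ± 0.272 and 0.0120 ± 0.0339 TPM in Brd1+/- and WT vehicle mice, while Mlxip had 17.2 ± 1.71 and 19.3 ± 3.93 TPM (n = 8 each, SD). Gm42907 had at most 0.0958 TPM in WT vehicle libraries, so it too passed the filter only through the group in which it was high.

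Gm37247 (chromosome 9, 108188998 to 108189727, minus strand) lies 317 bases after an exon at the start of an intron of 50448 bases of Bsn. It had 0.464, 0.739 and 1.48 TPM in Brd1+/- vehicle mice, no more than 0.229 TPM in any WT vehicle library and no more than 0.275 TPM in any of the 40 other libraries. The log2 difference was 2.87 ± 0.33 (SE), while Bsn had 51.4 ± 16.5 and 69.4 ± 31.2 TPM (n = 8 each, SD). Gm45191 lies in an intron of 125523 bases of Prkcb, the gene of protein kinase C beta, and had 0.136, 0.444 and 1.13 TPM against at most 0.0325 TPM in WT mice with vehicle. Gm45182, in an intron of 358705 bases of Dlg2, the gene of the postsynaptic scaffold PSD-93, had 0.227, 0.724 and 1.09 TPM against at most 0.0988 TPM. In each of the 3 the vehicle groups did not overlap, which is a description, since they were chosen for their large differences. For all 3 the Brd1+/- vehicle libraries alone were enough to pass the filter. Gm45191 and Gm45182 reached 0.1 TPM in no WT vehicle library and so passed only through the group in which they were high.

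The other 3 of this set lie near the start of their hosts, at 0.626%, 8.29% and 9.82% of the span. Gm45153 in Xylt1, whose product starts glycosaminoglycan chains, had 0.483 ± 0.233 and 0.00917 ± 0.0259 TPM in Brd1+/- and WT vehicle mice (n = 8 each, SD). Gm43099 in Sort1, the gene of the sorting receptor sortilin, had 0.572 ± 0.161 and 0.0318 ± 0.0227 TPM, and Gm48511 in Kif3c, a kinesin gene, had 0.465 ± 0.196 and 0.0114 ± 0.0322 TPM (n = 8 each, SD). Their log2 differences were 2.36, 2.33 and 2.31, as a description, since none reached 0.1 TPM in a WT vehicle library and each passed the filter only through the group in which it was high. The hosts had log2 differences of -0.45, -0.17 and 0.07, none of them called.

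**Figure D3:**
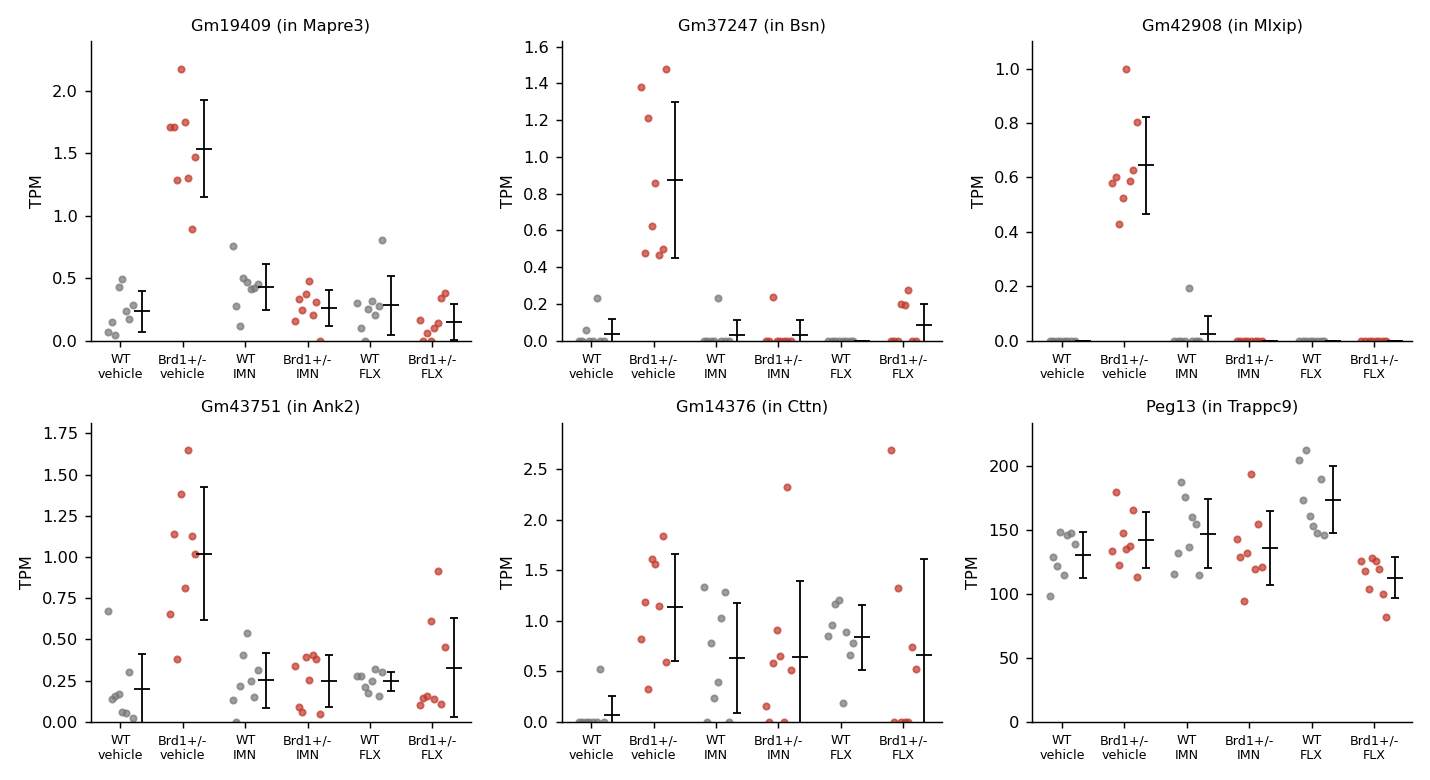
TPM of 6 named members in each library, by group, with mean and SD as black bars beside the points. Gm19409, Gm37247 and Gm42908 are above every other library in all 8 Brd1+/- vehicle libraries, Gm43751 and Gm14376 overlap with other groups, and Peg13 is lowest in Brd1+/- FLX mice, at 113 TPM on average against 174 TPM in WT FLX mice.

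Several hosts held more than 1 called member. Frmd4a, which encodes a scaffold protein of cell junctions (chromosome 2, 4017717 to 4614043, plus strand), held 6 members, all sense_intronic. All 6 were called higher in Brd1+/- vehicle mice, and the host was singled out after its values were seen. Each of the 6 fell below 0.1 TPM in some WT vehicle library. All therefore needed Brd1+/- vehicle libraries to pass the filter, and the count of calls is a description. The summed level of the 6 had a lowest, median and highest value of 1.88, 2.34 and 3.68 TPM in Brd1+/- and 0.117, 0.364 and 0.742 TPM in WT mice with vehicle, and reached at most 0.933 TPM in the other groups. Frmd4a itself had 35.7 ± 10.2 and 32.2 ± 6.85 TPM (n = 8 each, SD; log2 0.12, limma adjusted p = 0.921). Among the 6, Gm37814 had the largest difference (log2 2.18 ± 0.20 SE), with at most 0.0765 TPM in WT vehicle libraries and so tested only through the group in which it was high, and Gm36988 the smallest (1.26 ± 0.27 SE). These 6 share 1 host transcript and are not independent of each other.

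The 5 hosts with the most members were long neuronal genes. Kcnip4, whose product modulates A-type potassium channels, held 24 members with a summed level of 4.54 ± 2.16 TPM in Brd1+/- and 1.29 ± 0.676 TPM in WT mice with vehicle (n = 8 each, SD), and Kcnip4 itself had 45.2 ± 9.52 and 47.3 ± 17.1 TPM. Auts2, a transcriptional regulator of neuronal development, held 22 members, none of which passed the filter, and their sum was 0.671 to 2.33 TPM against 0 to 0.25 TPM, with a highest value of 0.397 TPM in the other 40 libraries. Cntnap2, which encodes an axonal adhesion protein, held 22 with a sum of 1.65 to 4.04 TPM against 0.113 to 0.902 TPM. Adgrb3, an adhesion receptor at synapses, held 19 with 2.02 to 5.68 TPM against 0.520 to 1.90 TPM. Dlg2 held 19 with 4.18 to 9.75 TPM against 2.07 to 4.99 TPM. The vehicle groups did not overlap for the sums in Auts2, Cntnap2 and Adgrb3 and overlapped for Kcnip4 and Dlg2. The mean was higher in Brd1+/- vehicle mice for 24 of 24 members in Kcnip4, 22 of 22 in Auts2, 21 of 22 in Cntnap2, 19 of 19 in Adgrb3 and 17 of 19 in Dlg2, and none of these 5 hosts was called, with log2 differences from -0.22 to 0.18.

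Hosts were also grouped by patterns in their gene symbols, which only roughly follow what their products do. Solute carriers (symbols with Slc) were counted with receptors and ion channels, and hosts of like function can match no pattern. With the filter on the other 40 libraries, the median log2 difference of the tested members was 0.70 in 39 hosts for the cytoskeleton, scaffolds and vesicle traffic (such as Ank2, Dlg2 and Kif3c), 0.64 in 35 hosts for synaptic adhesion and guidance (such as Cntnap2 and Adgrb3), 0.58 in 58 hosts for kinases, phosphatases and signalling, 0.54 in 43 hosts for transcription and chromatin, 0.40 in 39 hosts for receptors and ion channels and 0.16 in 16 hosts for RNA binding and splicing. The numbers called were 4 of 43, 3 of 40, 4 of 53, 1 of 39, 2 of 42 and 0 of 16. In the 767 hosts that matched no pattern the median was 0.37, with 19 of 566 called. No set of hosts was tested against another, and the median of the hosts themselves lay between -0.08 and 0.00 in the 6 groups.

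Where a member lay in its host went with the size of its difference. Without any filter, members in the first 20% of the host's span were above 0 at a rate of 71.8% in Brd1+/- and 42.3% in WT vehicle libraries, and members in the last 20% at 81.0% and 71.2%. In the first 20% of the span 273 to 332 of 427 members were above 0 per Brd1+/- vehicle library against a mean of 180 ± 12.3 (SD, n = 8) in WT vehicle mice. With the filter on the other 40 libraries the median log2 difference was 0.72 in the first 20%, 0.48, 0.51 and 0.30 in the next 3 steps of 20%, and 0.18 in the last. The called members were 18 of 166 in the first 20%, 4, 6 and 4 in the next 3 steps and 1 of 176 in the last. The median position of the 78 called members of the first fit was 22.5% of the host's span from its 5′ end, against 52.2% for the other 677 tested and 38.3% for the 929 not tested.

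Intron length and level went along with position. The median log2 difference was 0.25 in introns under 10000 bases, 0.48 up to 30000 bases, 0.54 up to 100000 bases and 0.71 beyond. Late members in short introns stood apart from the rest: the median was 0.22 for members past 40% of the span in introns under 30000 bases, against 0.56 for 215 earlier members in such introns, 0.59 for 118 earlier members in longer introns and 0.58 for 114 late members in longer introns. The first of these sets also had the highest level, with a median of 0.675 TPM over the other 40 libraries, against 0.280, 0.113 and 0.106 TPM. By level alone, members under 0.1 TPM in the other 40 libraries had a median log2 difference of 0.78, those from 1 to 5 TPM 0.13 and those over 5 TPM -0.01. At the lowest level, under 0.1 TPM, TEC genes outside genes had a median of 0.07, with 0 of 75 called. TEC genes on the opposite strand inside genes had a median of 0.66 at that level, with 5 of 29 called. Of the members at that level 17 of 191 were called. For members of hosts over 100 TPM the median was 0.60 and for those of hosts under 10 TPM it was 0.22. Position, intron length and level are correlated among members, and their separate parts were not tested.

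**Figure D4:**
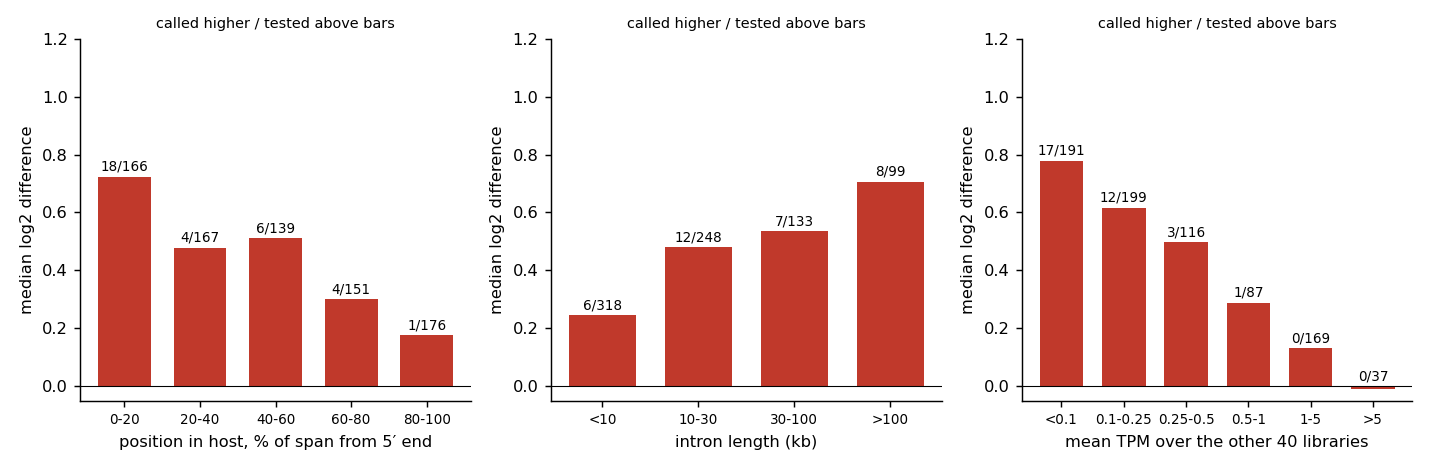
Median log2 difference between Brd1+/- and WT vehicle mice (bars) for intronic members by position in the host, intron length and mean TPM in the other 40 libraries, with the filter on those libraries; the fractions give members called higher over members tested. The bars fall from 0.72 in the first 20% of the host to 0.18 in the last 20%, rise with intron length from 0.25 to 0.71 and fall with level from 0.78 to -0.01.

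The members were next set against their own hosts within each library, as the difference of the log2 values, to ask whether the pair moved apart. In vehicle mice 177 of 747 tested members (23.7%) were higher relative to the host in Brd1+/- mice and 1 was lower, at an adjusted p of 0.05. Of all 1571 nested pairs tested, members included, 12.7% were called higher. Among the 824 pairs whose inner gene was of another class, 23 (2.79%) were called higher. The median difference of the member-to-host ratio was 0.48 for members and 0.10 for the other pairs. The p-values of the ratio were adjusted over 1571 pairs and those of the level over 24279 genes, and at an unadjusted p under 0.05 the counts were 284 and 287. With the filter on the other 40 libraries 88 of 792 members were called higher, against 5.43% of all 1859 pairs, members included. The count was 92 to 116 without any 1 of the Brd1+/- vehicle libraries 1 to 6 and 8, the lowest without libraries 4 and 8.

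In mice given IMN or FLX the genotypes were compared in the same way, with libraries the vehicle comparison did not use. With IMN 552 members were tested and limma called none, with 16 at an unadjusted p under 0.05, against 0.0170% of all genes called in either direction, and the median log2 difference was -0.01. With FLX 557 were tested, and 2 (0.359%) were called higher and 4 (0.718%) lower. Over all genes 0.165% were called higher and 1.38% lower, 1.54% in either direction. Of 949 hosts 17 (1.79%) were called lower and 0 higher. Of the members 46 had an unadjusted p under 0.05 with FLX, and their median was 0.06. Of the 78 members called in vehicle mice 22 could be tested with IMN, at a median of -0.15, and 22 with FLX, at a median of 0.06, and limma called none of them in either, at adjusted p. The summed level of the 78 was 31.4 to 54.7 TPM in Brd1+/- vehicle and 5.04 to 7.21 TPM in WT mice with vehicle, by which they were chosen, and 6.91 to 11.4 TPM in WT IMN, 5.43 to 9.07 TPM in Brd1+/- IMN, 6.37 to 8.90 TPM in WT FLX and 5.22 to 8.76 TPM in Brd1+/- FLX mice.

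Of the 6 members called between genotypes in FLX mice, Peg13 was by far the most abundant. Peg13 is an imprinted noncoding RNA expressed from the paternal copy (chromosome 15, 72805600 to 72810324, minus strand, 4725 bases) in an intron of Trappc9, a subunit of a vesicle transport complex. It had 81.7, 119 and 128 TPM (lowest, median, highest) in Brd1+/- FLX and 146, 167 and 213 TPM in WT FLX mice, groups that did not overlap. The log2 difference was -0.62 ± 0.11 (SE, limma adjusted p = 0.0138). Trappc9 had 38.9 ± 8.52 and 44.6 ± 2.85 TPM in these mice (n = 8 each, SD). Peg13 ranged from 98.3 to 149 TPM in WT vehicle, from 113 to 180 TPM in Brd1+/- vehicle, from 115 to 188 TPM in WT IMN and from 94.6 to 194 TPM in Brd1+/- IMN mice, and it was not called between genotypes in vehicle (adjusted p = 0.853) or IMN mice (adjusted p = 1.000). Its genotype difference with FLX departed from that with vehicle by -0.73 ± 0.15 (SE, limma interaction, adjusted p = 0.00901).

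The other 5 were lower in level. D930036K23Rik, in Hacd1, a gene of very long fatty acid synthesis, averaged 0.793 ± 0.246 TPM in Brd1+/- and 1.62 ± 0.441 TPM in WT FLX mice, and Gm44256, in Cacng7, a gene of an AMPA receptor auxiliary subunit, had 5.22 ± 1.3 and 8.46 ± 1.66 TPM (n = 8 each, SD; limma adjusted p = 0.0430 and 0.0441). Both calls ended under several alternatives, among them median-ratio scaling (adjusted p = 0.0534 and 0.0533), which left 2 members higher and 2 lower. Gm43755, in Drc1, a gene of motile cilia, had 3.15 ± 0.966 and 0.783 ± 1.28 TPM, with 5 of 8 WT FLX libraries listed at 0 (limma adjusted p = 0.0361). Gm37370 in Ankrd44 (0.0475 ± 0.0880 and 0.416 ± 0.231 TPM, log2 -1.83) and Gm37984 in Stum (0.534 ± 0.306 and 0.0702 ± 0.0625 TPM, log2 1.80) fell short of 1 TPM and were named after their values were seen. The number of calls was 1 without Brd1+/- FLX library 5 or without any of the WT FLX libraries 1, 2, 3 and 7, 2 without Brd1+/- FLX library 3 or 7, and 3 without library 8.

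In WT mice few members passed the test for either drug. With IMN 562 members were tested and limma called none, nor any other gene (0% of 23644 genes), with 24 members at an unadjusted p under 0.05 and a median log2 difference of -0.04. With FLX 548 were tested, and 1 (0.182%) was called higher and 1 (0.182%) lower. Over all genes 0.280% were called higher and 0.0552% lower, 0.335% in either direction. Of the members 48 had an unadjusted p under 0.05 with FLX, and their median was -0.08. Gm43445, in Lmo4, the gene of a LIM-domain transcriptional cofactor, was lower with FLX, at 0.438, 0.629 and 0.836 TPM (lowest, median, highest) against 1.02, 2.54 and 5.77 TPM in WT mice with vehicle, groups that did not overlap (log2 -1.83 ± 0.28 SE, limma adjusted p = 0.0184). Lmo4 itself ranged from 47.2 to 141 TPM with FLX and from 73.8 to 192 TPM with vehicle. Gm14376, described above for its low WT vehicle level, was higher with FLX, at 0.834 ± 0.319 and 0.0657 ± 0.186 TPM (n = 8 each, SD; log2 2.78 ± 0.41 SE, limma adjusted p = 0.0154), below 1 TPM and so named after its values were seen. Here Gm14376 passed the filter through the WT FLX libraries, in which it was high, so this difference too is a description. The count was 6 without WT vehicle library 1 or 7, 1 without WT vehicle library 2 or 8 or WT FLX library 2, and 0 without WT FLX library 7.

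In Brd1+/- mice members were lower with either drug than with vehicle. These comparisons use the same Brd1+/- vehicle libraries as the genotype comparison in vehicle mice and as each other, so they are not separate evidence, and their values are given side by side. With IMN 94 of 763 tested members (12.3%) were called lower and 0 higher, against 0.760% of all genes called lower, with 329 at an unadjusted p under 0.05. With FLX 85 of 755 (11.3%) were called lower and 0 higher, against 0.719%, with 299 at an unadjusted p under 0.05. The medians were -0.55 and -0.50, against -0.03 and -0.04 over all genes, -0.05 and -0.12 for TEC genes outside genes and -0.01 and -0.04 for hosts, of which limma called none in either, with 74 and 48 at an unadjusted p under 0.05. With the filter on the other 40 libraries the numbers called lower were 35 and 38 of 799, against 0.316% and 0.342% of all genes. Without any 1 of the Brd1+/- vehicle libraries 1 to 6 and 8 they were 37 to 57 with IMN and 33 to 44 with FLX, the lowest without libraries 4 and 3.

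Gm19409 had 0.261 ± 0.145 TPM with IMN and 0.148 ± 0.145 TPM with FLX against 1.54 ± 0.387 TPM with vehicle in Brd1+/- mice (n = 8 each, SD; log2 -2.29 and -2.91, limma adjusted p = 0.000797 and 0.000196). Gm43359, in Atp2a2, the gene of the calcium pump SERCA2, had 0.0879, 0.291 and 0.632 TPM with IMN and 0.145, 0.429 and 0.887 TPM with FLX (lowest, median, highest) against 1.08, 1.44 and 2.09 TPM with vehicle, so that neither drug group overlapped with vehicle (log2 -2.01 and -1.65, limma adjusted p = 0.00227 and 0.00539). Atp2a2 stood at 285 ± 53.0 TPM with vehicle, 290 ± 57.7 TPM with IMN and 284 ± 67.3 TPM with FLX (n = 8 each, SD). Gm43751 and Gm29438 were lower with IMN (log2 -1.77 and -1.87, limma adjusted p = 0.0202 and 0.00561), and with FLX they had log2 differences of -1.56 and -1.3 that missed the threshold (adjusted p = 0.0838 and 0.0625). Gm44735, in Kctd13, which encodes an adaptor of a ubiquitin ligase, was lower with IMN (0.977 ± 0.315 against 2.04 ± 0.391 TPM, limma adjusted p = 0.0178). Gm48027, in Arid4b, a chromatin gene, was lower with FLX (0.534 ± 0.237 against 1.23 ± 0.240 TPM, limma adjusted p = 0.0211; SD, n = 8 each).

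Whether the drug difference itself departed between the genotypes was tested as an interaction over the 4 groups concerned. For IMN 75 of 929 members (8.07%) had a lower drug difference in Brd1+/- than in WT mice and 0 a higher, against 0.532% of all genes, with 313 at an unadjusted p under 0.05. For FLX the numbers were 84 of 917 (9.16%) and 0, against 1.53% of all genes, with 274 at an unadjusted p under 0.05. The medians were -0.59 and -0.50 for members and 0.00 and -0.09 for hosts. Of 961 hosts 0 were called for IMN, with 79 at an unadjusted p under 0.05. For FLX 4 hosts (0.416%) were called higher and 9 (0.937%) lower, with 203 at an unadjusted p under 0.05. Both interactions use the same Brd1+/- vehicle libraries as the comparisons above, so they are not separate evidence. With the filter on the other 40 libraries 20 and 30 of 799 members were called lower, against 0.186% and 1.03% of all genes. For Gm19409 the interactions were -3.01 ± 0.46 with IMN and -3.02 ± 0.54 with FLX (SE, limma adjusted p = 0.000290 and 0.00278). Without Brd1+/- vehicle library 4 or 5 the FLX count was 47 or 55.

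**Figure D5:**
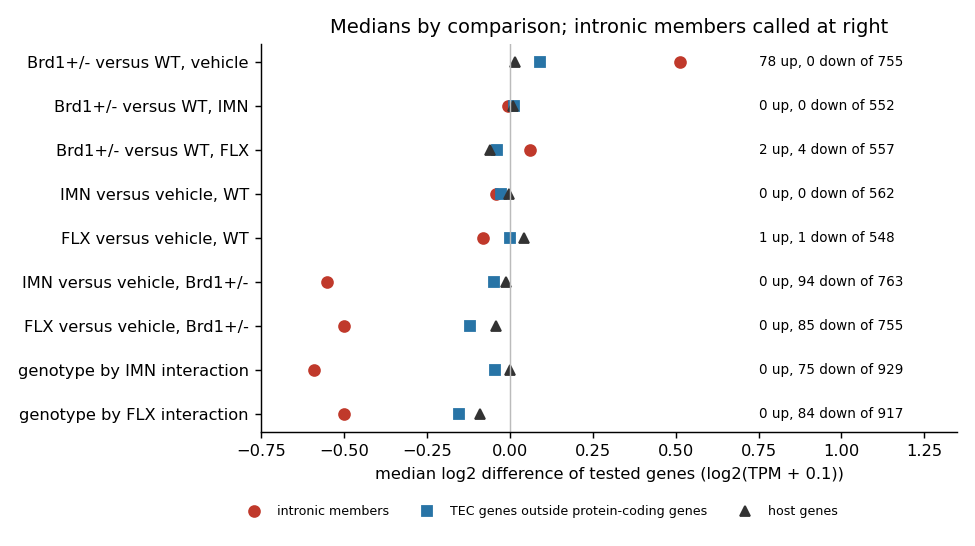
Median log2 difference (horizontal axis) of tested intronic members, TEC genes outside genes and hosts in each comparison, with the numbers of members called higher and lower at the right. The members stand at 0.51 in the vehicle genotype comparison, at -0.55 and -0.50 in the drug comparisons within Brd1+/- mice and near 0 wherever no Brd1+/- vehicle library takes part.

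The 10 most abundant members were, Peg13 apart, called in no comparison. After Peg13, at a mean of 140 TPM over the 48 libraries, came B930095G15Rik in Farp1 (35.8 TPM), Gm42732 in Ociad1 (24.3), Gm11611 in Srcin1 (20.6), Gm43843 in Cttnbp2 (16.7), Gm37963 in Usp4 (15.1), Gm42433 in Map4 (15), Gm42979 in Sfswap (14.7), Gm42664 in Ptbp2 (11.5) and Gm47260 in Ddx24 (9.99). Farp1, Srcin1 and Cttnbp2 encode proteins of dendritic spines and synapses, Map4 a microtubule-associated protein, and Sfswap, Ptbp2 and Ddx24 RNA-binding or RNA helicase proteins. Gm42732 averaged 24.2 ± 3.28 TPM in Brd1+/- and 25.3 ± 3.79 TPM in WT mice with vehicle (n = 8 each, SD), and Gm47260 had 9.79 ± 2.62 and 10.3 ± 2.28 TPM. None of the 10 was called by limma between the vehicle genotypes, where the lowest adjusted p was 0.828. They lay between 49.2% and 93.5% of their hosts' spans.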

How the data were processed

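Per the labels, TruSeq libraries of 48 amygdala punches were sequenced. As the methods and processing notes state, the authors aligned reads to GRCm38 with HISAT2 2.1.0, quantified genes with StringTie 1.3.4 on an Ensembl 90 annotation and tested counts with edgeR. The authors deposited TPM values, which retain no depth, for 52636 genes, and each column was matched to a sample by its label. The series' design text names other brain regions, and the sample labels (amygdala) were followed. Short genes gain large TPM from few reads. Whether counting used strand is not stated.

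Biotypes, hosts and coordinates (1-based) came from GENCODE M21 on GRCm38, where 52489 of the IDs were found. A member inside several genes was given the host of smallest span. Genes of at least 0.1 TPM in at least 8 libraries of a fit were compared on log2(TPM + 0.1) with limma 3.58.1 (R 4.3.3; eBayes, trend), two-sided, with Benjamini-Hochberg adjustment over all genes tested and a threshold of 0.05. Only the groups compared entered a fit. Since TPM is not a count, limma replaced the authors' count test. The procedure was tested on simulated data.

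Members, lists and tests were chosen with earlier results of these data known. Named members were, per comparison, called members whose higher group averaged 1 TPM or more (up to 15 in the vehicle genotype comparison and up to 5 per direction in the others, by size of the log2 difference), the 10 of highest mean level, the 5 hosts with most members and the hosts of named members. Others are stated to be chosen after their values were seen. Replicates are separately coded samples, and p-values measure the spread between them. Alternatives were pseudocounts of 0.01 and 1, no filter, a TPM of at least 1, median-ratio scaling, an untrended eBayes, all 48 libraries fitted jointly, a block on replicate number, a sample code range term, leaving out each library, a filter on the 40 libraries outside Brd1+/- vehicle mice (added after seeing the data) and a stricter definition of members.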

Additional observations from a re-analysis of the deposited data

Results flagged for a closer look

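The drug difference of the members departed between genotypes by a test of the interaction, for 75 members (8.07%) with IMN and 84 (9.16%) with FLX. Of all genes 0.532% and 1.53% were called in that direction. With the filter on the other 40 libraries the counts of members were 20 and 30. Both interactions share the vehicle libraries of the vehicle genotype comparison. Among named members the interaction with IMN was -3.01 (log2) for Gm19409. With FLX it was -4.46 for Gm14376, -3.02 for Gm19409, -2.01 for Gm43751, -1.55 for D930036K23Rik and -0.73 for Peg13. For Gm14376 the WT mice moved most, from 0.0657 TPM with vehicle to 0.834 TPM with FLX.

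Single libraries stood far from the others of their group of 8 in 15 of 144 groups of values examined, where chance marks about 1 in 20. The values were 0.526 TPM (WT vehicle 7) and 2.32 TPM (Brd1+/- IMN 7) for Gm14376, 0.804 TPM (WT FLX 8) for Gm19409, 0.672 TPM (WT vehicle 1) for Gm43751, 0.682 TPM (WT vehicle 2) for Gm29438 and 1.28 TPM (WT vehicle 3) for Gm38366. They were 2.42 TPM (Brd1+/- vehicle 2) for D930036K23Rik, 1.53 TPM (WT IMN 1) for Gm43359, 2.73 TPM (Brd1+/- FLX 6) for Gm44735, and 1.62 TPM (Brd1+/- IMN 1) and 1.07 TPM (Brd1+/- FLX 1) for Gm48027. Among abundant members they were 16.3 TPM (WT vehicle 1) for Gm42732, 32.6 TPM (Brd1+/- FLX 6) for Gm11611, 5.76 TPM (Brd1+/- FLX 4) for Gm37963 and 19.7 TPM (WT IMN 1) for Gm42979. The number of members above 0 and their summed TPM marked no library.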

How the results depend on the processing

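The number of members called depended on which genes were tested and on the spread used, and no setting turned the direction of a count or of a named member. In the vehicle genotype comparison 78 calls became 165 with no filter, 0 with a TPM of at least 1 in 8 libraries, 141 with all 48 libraries in 1 fit, 24 with the replicate block and 33 with the filter on the other 40 libraries. In Brd1+/- mice 94 calls for IMN became 169, 1, 160, 40 and 35 in the same order, and 85 calls for FLX became 154, 1, about 1.4e+02, 32 and 38. The IMN interaction (75) gave 43 with a pseudocount of 0.01, 129 with no filter, 0 with a TPM of at least 1 and 20 with the filter on the other 40 libraries, and the FLX interaction (84) gave 48 with the same pseudocount, 3 with a TPM of at least 1 and 30 with the filter on the other 40 libraries. The ratio to the host (178) gave 20 with a pseudocount of 1, 1 with a TPM of at least 1 and 88 with the filter on the other 40 libraries. The genotype comparison in FLX mice (6) gave 0 with the replicate block and 2 with the sample code range term. FLX in WT mice (2) gave 1 with a TPM of at least 1, 1 with all 48 libraries in 1 fit and 0 with the replicate block. A filter at 1 TPM leaves out most members by construction, and for the other settings the cause was not tested.

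Leaving out 1 library gave 31 to 85 calls in the vehicle genotype comparison, 0 with IMN and 1 to 8 with FLX between genotypes, 0 and 0 to 6 for IMN and FLX in WT mice, 37 to 81 and 33 to 77 for IMN and FLX in Brd1+/- mice, 58 to 81 and 47 to 90 for the interactions and 92 to 176 for the ratio to the host. Named members kept their direction in all 387 alternative fits, and 37 of these fits ended a call. The replicate numbers did not pair the mice: deviations of same-numbered libraries from their group means correlated at a median of -0.02 (range -0.29 to 0.52), and 5 of 48 libraries correlated best with their own number, and the part of the block in the lower counts was not tested. Depth is unknown from TPM, so it could not be said how many reads stand behind a level under 1 TPM.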
